A study of Mus musculus with 6 samples.

Results

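The genes described here are the D-type cyclins Ccnd1, Ccnd2 and Ccnd3, their kinases Cdk4 and Cdk6, the inhibitors Cdkn2c, Cdkn1b and Cdkn1c, the pocket protein gene Rb1 and the cyclin G2 gene Ccng2. They were taken by name, as probe sets annotated with exactly 1 symbol of that list, which gave 11 probe sets for 10 genes among 35512 probe sets on the array (21789 with 1 symbol, covering 19938 genes). Liver RNA was measured in 3 mice homozygous for the G609G allele of Lmna (knock-in, numbered 1, 3 and 5) and in 3 that were wild-type (numbered 2, 4 and 6). All 6 animals were C57BL/6 females aged 3 months that had been without food for 6 h, with 1 biotin-labelled array each. The allele is carried in the germline, so every cell of the animal has it, and whole liver was used, so that fewer cells of a type and less RNA per cell cannot be told apart in any value below.

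D-type cyclins are made in response to growth signals and bind CDK4 or CDK6, and the active pair phosphorylates the retinoblastoma protein, which releases E2F transcription factors and lets a cell pass from G1 into S phase. INK4 inhibitors such as the product of Cdkn2c bind CDK4 and CDK6 themselves, whereas Cip/Kip inhibitors such as p27 (Cdkn1b) and p57 (Cdkn1c) bind cyclin and kinase together. Adult hepatocytes are mostly quiescent, and cyclin D1 is the D-type cyclin best known for its induction when they re-enter the cycle after part of the liver is removed.

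The array data came as 1 whole-number intensity per probe set and mouse, with array medians of 101 to 104 in knock-in and 97.0 to 101.5 in wild-type liver. The hepatocyte marker Alb read 16618 to 18818 in knock-in and 16607 to 17889 in wild-type liver, as the tissue label implies. A difference was called when the limma adjusted p, over 26664 tested probe sets, was below 0.05. By that rule 25.9% of all tested probe sets were called, 15.0% higher and 10.9% lower in knock-in liver, with a median log2 change of 0.03 over all of them, and the genotypes did not overlap at 41.2%. Of the called probe sets 57.8% were higher, and 47.8% were after the median of every array had been subtracted, a step under which no member changed direction or call. Knock-in replicate 3 stood apart: it was the knock-in mouse nearest to the wild-type mean at 65.1% of the called probe sets. Among the 8 called member probe sets it was the nearest at 4. Values without it are given below for the D-type cyclins and both kinase genes, and for some of the other results.

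RefSeq promoter sequence (GRCm38.p6) was matched for 6 of the 10 genes, namely Ccnd3, Ccng2, Cdk4, Cdk6, Cdkn1b and Cdkn2c, at 8 start sites. The 250 bases before the start are shown for the kinase genes, which fell, and for Ccnd3 and Ccng2, which rose. Capitals mark the E-box CACGTG, the site bound by Myc family and clock transcription factors, and the FOXO motif GTAAACA, both searched on both strands. All are written 5′ to 3′ on the strand of the gene.
Cdk4, chr10:127063285-127063534, + strand: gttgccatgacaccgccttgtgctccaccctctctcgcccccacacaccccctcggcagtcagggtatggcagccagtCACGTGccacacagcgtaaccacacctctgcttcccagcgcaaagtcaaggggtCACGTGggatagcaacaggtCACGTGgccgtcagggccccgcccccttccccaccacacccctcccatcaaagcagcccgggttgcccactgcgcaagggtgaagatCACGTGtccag
Cdk6, chr5:3343643-3343892, + strand: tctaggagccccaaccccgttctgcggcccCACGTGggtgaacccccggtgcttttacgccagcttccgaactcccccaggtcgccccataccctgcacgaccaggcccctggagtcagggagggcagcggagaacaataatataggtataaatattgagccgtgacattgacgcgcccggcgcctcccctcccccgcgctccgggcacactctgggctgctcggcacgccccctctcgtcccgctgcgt
Ccnd3, the more upstream of its 2 start sites, chr17:47504801-47505050, + strand: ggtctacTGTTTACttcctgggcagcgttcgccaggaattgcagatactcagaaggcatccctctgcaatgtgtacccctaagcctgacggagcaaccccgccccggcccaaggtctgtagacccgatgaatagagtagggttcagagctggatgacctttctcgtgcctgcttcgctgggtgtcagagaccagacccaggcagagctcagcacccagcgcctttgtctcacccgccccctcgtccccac
Ccng2, chr5:93267323-93267572, + strand: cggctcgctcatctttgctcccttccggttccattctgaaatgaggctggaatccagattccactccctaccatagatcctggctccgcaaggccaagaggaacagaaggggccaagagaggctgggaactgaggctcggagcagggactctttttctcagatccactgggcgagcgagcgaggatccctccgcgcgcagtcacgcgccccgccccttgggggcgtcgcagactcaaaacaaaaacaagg
The Cdk4 window held 4 E-boxes and that of Cdk6 held 1. Of 32851 windows of that length, 6.02% held at least 1 E-box and 0.0213% (7 windows) held 4 or more. The cut of 4 equals the count in the Cdk4 window itself, so that share is no test of it. The FOXO motif lay once before the more upstream Ccnd3 start, against 3.17% of all windows, and no other of the 8 windows held it. Only the windows of both kinase genes held the E-box. The E2F motifs TTTCCCGC, TTTGGCGC, TTTCGCGC and TTTGCCGC were in 0 of the 8 windows, and 1.86% of all windows held any of them. At a share that low, 8 windows are too few to show a shortage. A match of letters is a description of the window and not a measured binding site. None of the motifs marked overlapped another in these windows.

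Of the 11 probe sets, 5 were called lower in knock-in liver (Ccnd1, Ccnd2, Cdk4, Cdk6 and Cdkn2c), where 10.9% of all tested probe sets were. Another 3 were called higher (Ccnd3, Cdkn1c and Ccng2), beside 15.0% of all. Both probe sets of Cdkn1b and that of Rb1 were not called. All 11 passed the filter on dim signals, and the genotypes did not overlap at 10 of the 11, beside 41.2% of all tested probe sets. The genes were chosen with earlier results of these data known, so these counts describe them and are no test against those shares. The changes ran in both directions within the cyclins and within the inhibitors, and the median log2 change of the 11 was 0.21. The plot of intensities by mouse shows the separation of each gene.

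**Figure D1:**
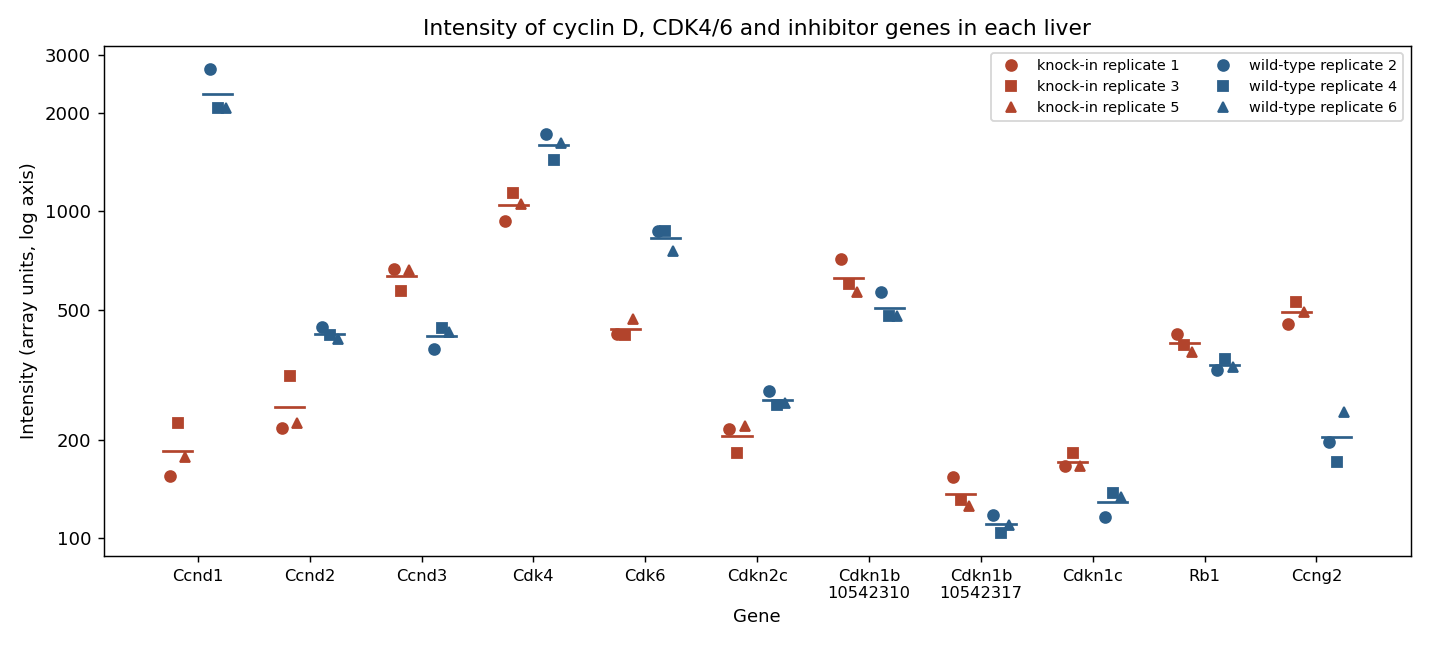
Intensity (array units, log axis) of each probe set in 3 knock-in livers (left, red) and 3 wild-type livers (right, blue), with symbols for single mice and lines for group means. Ccnd1 shows the widest gap, with knock-in mice at 155 to 225 and wild-type mice at 2065 to 2723, and probe set 10542310 of Cdkn1b is the one at which the genotypes overlap.

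Ccnd1 changed most of the 10 genes. Its probe set (10569646) read 155, 225 and 177 in knock-in replicates 1, 3 and 5, against 2723, 2065 and 2070 in wild-type replicates 2, 4 and 6. Every knock-in liver thus lay far below every wild-type liver, and within each genotype the spread was small beside that gap. The means were 186 ± 35.8 in knock-in and 2286 ± 378 in wild-type liver (SD, n = 3 mice each). On the scale of log2(intensity + 16) the change was -3.52 ± 0.17 (SE; 95% interval -3.90 to -3.13; limma adjusted p = 8.16e-05), which is 11.4-fold lower. It ranked 15 among the falls of all 26664 tested probe sets. Leaving out single mice gave -3.65 to -3.38, with the largest fall when knock-in replicate 3 was the one left out.

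Ccnd2, which encodes the D-type cyclin best known from lymphoid, ovarian and pancreatic islet cells, also fell. It read 218, 313 and 225 in knock-in and 443, 418 and 406 in wild-type liver. The wild-type mice lay close together and knock-in replicate 3 lay nearest to them, without overlap. The change was -0.73 ± 0.14 on the log2 scale (SE, n = 3 mice each; 95% interval -1.06 to -0.39; limma adjusted p = 0.0100), 1.65-fold lower, and -0.88 without knock-in replicate 3.

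Ccnd3 moved the other way. This gene of the third D-type cyclin, which many differentiated tissues express, read 665, 570 and 664 in knock-in and 380, 440 and 429 in wild-type liver. All knock-in values lay above all wild-type values. The rise was 1.5-fold, a log2 change of 0.59 ± 0.11 (SE, n = 3 mice each; 95% interval 0.33 to 0.84; limma adjusted p = 0.00806), and 0.66 without knock-in replicate 3.

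The kinase genes both fell. Cdk4 read 936, 1140 and 1052 in knock-in and 1727, 1431 and 1615 in wild-type liver, with no overlap and a similar relative spread in both genotypes. It was 1.52-fold lower, a log2 change of -0.60 ± 0.12 (SE, n = 3 mice each; 95% interval -0.87 to -0.33; limma adjusted p = 0.00883). Cdk6, the kinase otherwise most studied in blood cells, read 422, 418 and 468 in knock-in and 868, 871 and 757 in wild-type liver. The knock-in mice were tightly grouped, and wild-type replicate 6 was the nearest to them. The fall was 1.87-fold, a log2 change of -0.91 ± 0.10 (SE, n = 3 mice each; 95% interval -1.15 to -0.66; limma adjusted p = 0.00143). Without knock-in replicate 3 the log2 changes were -0.67 for Cdk4 and -0.88 for Cdk6.

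Ccnd2 and Cdk6 are well known from blood cells, and markers of the other cell types that whole liver holds were read on the same arrays. The counts of called markers stand beside 15.0% higher and 10.9% lower of all tested probe sets. Of 8 sinusoidal endothelial markers, 4 were called lower and 1 higher (Lyve1), with a median log2 change of -0.39 and summed intensities of 5130 to 7002 in knock-in and 6574 to 7025 in wild-type liver. Oit3, Kdr and Stab2, all markers of that cell type, changed by -0.48, -0.49 and -0.37 on the log2 scale (limma adjusted p = 0.0134, 0.0175 and 0.0214). The other called lower was Clec4g, named like Lyve1 after its values were seen. The number of endothelial markers called lower was 0 without knock-in replicate 1 or without wild-type replicate 6, 1 without wild-type replicate 2 and 6 without knock-in replicate 3. Of 8 Kupffer cell markers, Adgre1 was called lower (log2 change -1.06, limma adjusted p = 0.0452), a call that 4 of the 6 single-mouse omissions removed (knock-in 1 and 5, wild-type 2 and 4). The call of Adgre1 was also lost with no filter on dim signals, with robust eBayes and with array weights. The other 7 Kupffer markers were not called, and the median log2 change of the 8 was -0.49. The Kupffer markers summed to 2175 to 4197 in knock-in and 3734 to 6361 in wild-type liver.

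For lymphocytes, 0 of 5 tested T and NK cell markers were called by limma (lowest adjusted p = 0.101, and 1 at an unadjusted p under 0.05), with sums of 450 to 473 in knock-in and 451 to 508 in wild-type liver over 7 genes. Of 3 tested B cell markers, Cd79b fell by 0.46 on the log2 scale (limma adjusted p = 0.00876), with sums of 238 to 276 in knock-in and 296 to 345 in wild-type liver over 5 genes. No marker was listed at 0, and Cd3d, Gzma, Cd79a, Ms4a1, Mmp8 and Cftr lay under the filter on dim signals. Neutrophil markers were called higher in 3 of 6 cases and lower in 0, with sums of 522 to 548 in knock-in and 365 to 433 in wild-type liver over 7 genes. Retnlg, S100a8 and Mmp9, all read by dim probe sets, were the 3 that rose. Among stellate cell and fibroblast markers, Dcn rose (log2 change 0.49) and Lrat fell (-1.16), and the other 6 were not called. Of 3 erythroid markers Alas2 fell (-0.90), and of 4 tested cholangiocyte markers 0 were called by limma (lowest adjusted p = 0.327, and 0 at an unadjusted p under 0.05). Among 10 hepatocyte markers, Hnf4a, Tdo2 and Tat rose, as did Pck1, and Asgr1 fell (the last 2 named after their values were seen). Single omissions removed the calls of Tat (knock-in 1), Lyve1 (knock-in 5), Oit3 (knock-in 1 or wild-type 6), Kdr and Stab2 (knock-in 1 or wild-type 2 or 6) and Alas2 (wild-type 2 or 6). Those of Mmp9 and Pck1 were lost with 4 of the 6 mice, each time knock-in 1 or 5 or wild-type 2 or 4, and those of Asgr1 and Clec4g with any mouse but knock-in 3. Pck1 was also not called after quantile normalization or centring of the arrays, with no filter on dim signals, or with eBayes without a trend. The part of these cell types in the changes of the cyclin and kinase genes was not tested.

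The inhibitors did not share a direction. Cdkn2c, the INK4 gene of the group, read 216, 182 and 220 in knock-in and 282, 255 and 259 in wild-type liver, without overlap. It was 1.27-fold lower, a log2 change of -0.34 ± 0.10 (SE, n = 3 mice each; 95% interval -0.59 to -0.10; limma adjusted p = 0.0457). That call lay close to the threshold and was lost when any single mouse was left out (adjusted p = 0.0589 to 0.145), with log2 changes of -0.39 to -0.26.

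Cdkn1c, an imprinted gene whose product p57 restrains growth in development, read 166, 182 and 166 in knock-in and 116, 138 and 134 in wild-type liver. The groups did not overlap, and the rise was 1.29-fold, a log2 change of 0.37 ± 0.09 (SE, n = 3 mice each; 95% interval 0.15 to 0.59; limma adjusted p = 0.0256). Omitting any single mouse other than wild-type 4 removed the call (adjusted p = 0.0519 to 0.0884). Over all 6 single omissions the log2 change was 0.30 to 0.41.

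Cdkn1b, which encodes p27, an inhibitor held high in many quiescent cells, had 2 probe sets. The brighter one (10542310) read 713, 598 and 565 in knock-in and 567, 478 and 478 in wild-type liver, and wild-type replicate 2 lay just above knock-in replicate 5. Its log2 change was 0.29 ± 0.13 (SE, n = 3 mice each; 95% interval -0.0022 to 0.58; limma adjusted p = 0.135). The dimmer one (10542317) read 154, 131 and 126 in knock-in and 118, 104 and 110 in wild-type liver, without overlap. Its log2 change was 0.27 ± 0.10 (SE; 95% interval 0.042 to 0.50; limma adjusted p = 0.0828). Both probe sets gave the same sign and nearly the same size, and neither was called.

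Rb1, the gene of the retinoblastoma protein on which the cyclin D kinases act, read 422, 391 and 371 in knock-in and 328, 354 and 334 in wild-type liver. The knock-in values lay above the wild-type values by a small margin. The log2 change was 0.21 ± 0.09 (SE, n = 3 mice each; 95% interval -0.0093 to 0.43; limma adjusted p = 0.148), which did not pass.

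Ccng2 encodes cyclin G2, an unconventional cyclin that is highest in arrested cells and is a known target of FOXO transcription factors. It read 452, 529 and 494 in knock-in and 197, 171 and 244 in wild-type liver, so that the lowest knock-in mouse lay well above the highest wild-type mouse. The rise of 2.32-fold was the largest among the 10 genes, a log2 change of 1.22 ± 0.14 (SE, n = 3 mice each; 95% interval 0.89 to 1.54; limma adjusted p = 0.00141). With single mice left out the log2 change was 1.11 to 1.34.

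**Figure D2:**
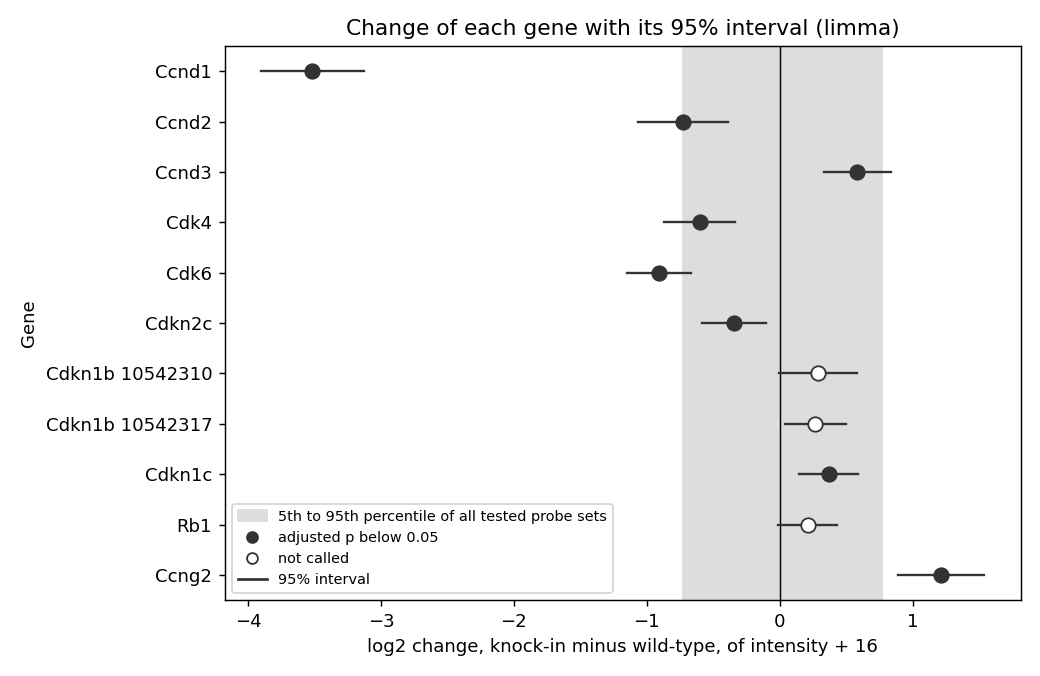
log2 change (knock-in minus wild-type, of intensity + 16) of each probe set with its 95% interval from limma, where filled points had an adjusted p below 0.05. The grey band spans the 5th to 95th percentile of all tested probe sets (-0.73 to 0.77), and Ccnd1 at -3.52, Cdk6 at -0.91 and Ccng2 at 1.22 lie outside it, while Ccnd2 at -0.73 lies on its lower edge.

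Changes of related genes were also set against each other within each liver, after each gene was taken relative to its own wild-type mean, since the levels of different probe sets cannot be compared. The change of Ccnd1 was more negative than those of both other D-type cyclins, with a log2 difference of -2.79 ± 0.11 (SE) from Ccnd2 and of -4.10 ± 0.29 from Ccnd3. Ccnd2 and Ccnd3 differed by -1.31 ± 0.25. For Cdk4 and Cdk6 the difference was 0.30 ± 0.15. In each of these 4 pairs no knock-in liver overlapped the wild-type livers, and the exact two-sided permutation test gave p = 0.1, the smallest that 3 mice against 3 allow (0.125 after Benjamini-Hochberg adjustment over 5 pairs). Hence none of the 5 passed a threshold of 0.05, which this design cannot reach. Cdkn1b and Cdkn1c differed by -0.08 ± 0.19, with overlapping livers (exact permutation p = 0.5, and 0.5 adjusted).

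**Figure D3:**
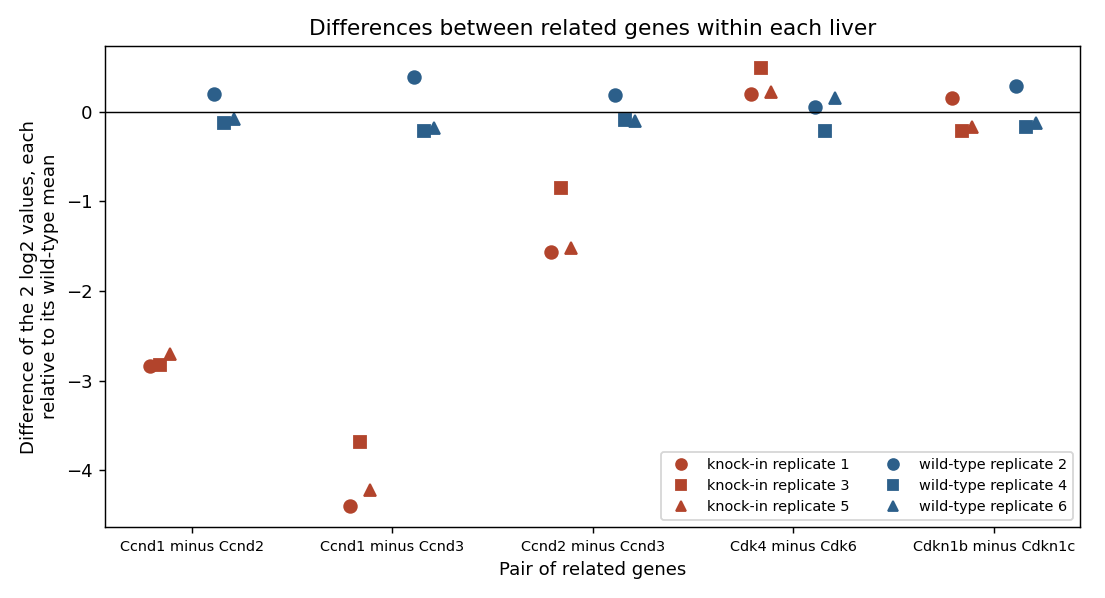
Difference between the log2 values of 2 related genes within each liver, each gene taken relative to its wild-type mean, in 3 knock-in (left, red) and 3 wild-type (right, blue) livers. For Ccnd1 minus Ccnd2 the knock-in livers lie at -2.83, -2.83 and -2.70, while for Cdkn1b minus Cdkn1c the genotypes overlap.

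Other genes of the pathway were counted from lists, each gene by its brightest tested probe set. The count of each list stands beside 15.0% higher and 10.9% lower of all tested probe sets. No list was tested as a set. Among 17 genes of the Rb family, E2F factors and the DREAM complex, 3 were called higher and 3 lower, with a median log2 change of -0.10. Rbl2, which encodes the pocket protein p130 of quiescent cells, read 1284, 1120 and 1176 in knock-in and 645, 672 and 615 in wild-type liver. It was 1.83-fold higher (log2 change 0.87 ± 0.10, limma adjusted p = 0.00130). Tfdp2, an E2F dimerisation partner, was 1.86-fold higher (log2 change 0.90, adjusted p = 0.00636). The repressor genes E2f6 and E2f8 were 1.74-fold and 2.19-fold lower (log2 changes -0.80 and -1.13, limma adjusted p = 0.00724 and 0.0100). E2f8 was dim, at 33, 41 and 55 in knock-in and 126, 75 and 145 in wild-type liver. The size of its fall depends on the pseudocount (log2 change -1.38 with 1 and -0.73 with 64). The others called were Rbl1 (p107), lower, and E2f5, higher, both named after their values were seen (log2 changes -0.28 and 0.29, limma adjusted p = 0.0289 and 0.0399). Rbl1 was dim too, at 44 to 53 in knock-in and 60 to 65 in wild-type liver. Rbl1 lost its call with 4 of the 6 mice left out singly and E2f5 with each of the 6, and the number called lower was then 2 to 4 and the number higher 2 or 3.

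Of 10 G1/S and CDK-activating cyclins and kinases, Cdk2, the partner of cyclin E, was called lower (log2 change -0.46 ± 0.12, limma adjusted p = 0.0243) and 0 higher, with a median of -0.11. Omitting knock-in 1 or 5, or wild-type 2 or 6, removed the call (adjusted p = 0.0522 to 0.0853), and 3 of the 10 were lower without knock-in replicate 3. Of the other CDK inhibitors, Cdkn2d, Cdkn2b and Cdkn2a were tested and 0 of 3 called by limma, with log2 changes of -0.23, 0.16 and 0.02 (adjusted p = 0.144, 0.339 and 0.940). None had an unadjusted p under 0.05 (count 0). Cdkn1a had no probe set with a single symbol and is not reported.

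Among 14 genes for the turnover of D cyclins and p27, 3 were called higher and 2 lower (median log2 change 0.0078). Fbxo31, which encodes an F-box protein that targets cyclin D1 for degradation after DNA damage, read 3531, 3557 and 5014 in knock-in and 1350, 1905 and 1968 in wild-type liver. Every knock-in mouse was above every wild-type mouse, and the rise was 2.30-fold (log2 change 1.20 ± 0.19, limma adjusted p = 0.00424). Cul1, the scaffold of SCF ubiquitin ligases, rose (log2 change 0.46, adjusted p = 0.0155), while its adaptor gene Skp1 fell (-0.46, limma adjusted p = 0.0169). Cryab, whose product assists the F-box protein Fbxo4 in cyclin D1 degradation, fell (-0.51, limma adjusted p = 0.0114). Fbxo4 itself, named after its values were seen, was higher (0.48, limma adjusted p = 0.0391), and that call was lost with 5 of the 6 mice left out singly. Of the list, 1 was higher without knock-in replicate 1 or without wild-type replicate 6, and 1 was lower without wild-type replicate 2 or 6. These were the omissions that removed the calls of Cul1 (knock-in 1, wild-type 6) and Skp1 (wild-type 2 and 6).

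Of 10 upstream regulators, 5 were called higher and 2 lower, with a median of 0.41. Myc, the transcription factor whose family binds the E-box, read 1877, 1536 and 2963 in knock-in and 188, 247 and 428 in wild-type liver. It was 7.16-fold higher (log2 change 2.84 ± 0.33, limma adjusted p = 0.00148). Jun, part of AP-1, read 1104, 1117 and 1100 in knock-in and 301, 245 and 345 in wild-type liver, a rise of 3.62-fold (limma adjusted p = 0.000302). The growth factor receptor genes split, with Egfr 1.94-fold higher and Met, the hepatocyte growth factor receptor, 3.14-fold lower (limma adjusted p = 0.00471 and 0.00125). Foxo1 and Foxo3, named after their values were seen, were 1.85-fold and 1.86-fold higher (limma adjusted p = 0.0169 and 0.00889). Foxo1 lost its call without knock-in replicate 5 (adjusted p = 0.0535). The other called lower was Ctnnb1, which encodes beta-catenin and was named after its values were seen (log2 change -0.60, limma adjusted p = 0.0185), and its call was lost with any of knock-in 1, wild-type 2 and wild-type 6 omitted.

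Of 21 tested genes of replication and mitosis, 3 were called higher and 4 lower, with a median of -0.01. Among all tested probe sets 15.0% were called higher and 10.9% lower. Pcna, the sliding clamp of DNA polymerase, rose 1.51-fold (1345 to 1621 in knock-in and 951 to 1022 in wild-type liver, limma adjusted p = 0.00561). The helicase subunit gene Mcm6 rose 1.38-fold, thymidine kinase Tk1 was 1.68-fold lower and the mitotic cyclin gene Ccnb2 was 1.55-fold lower (limma adjusted p = 0.00428, 0.00654 and 0.00215). Mki67, which marks cycling cells and is named after its values were seen, lay at 41 to 42 in knock-in and 42 to 52 in wild-type liver and was not called (limma adjusted p = 0.337). That signal was dim, well under the median of every array, so the lack of a call does not show that cycling was unchanged. The remaining calls, named after their values were seen, were Mcm7 (higher) and Rrm1 and Tyms (lower), each lost with 5 of the 6 mice left out singly. The number called lower was 2 or 3 in those fits, at 2 without knock-in 1 or 5 and without wild-type 2 or 6, and Orc1, Top2a and Bub1 were too dim to be tested.

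**Figure D4:**
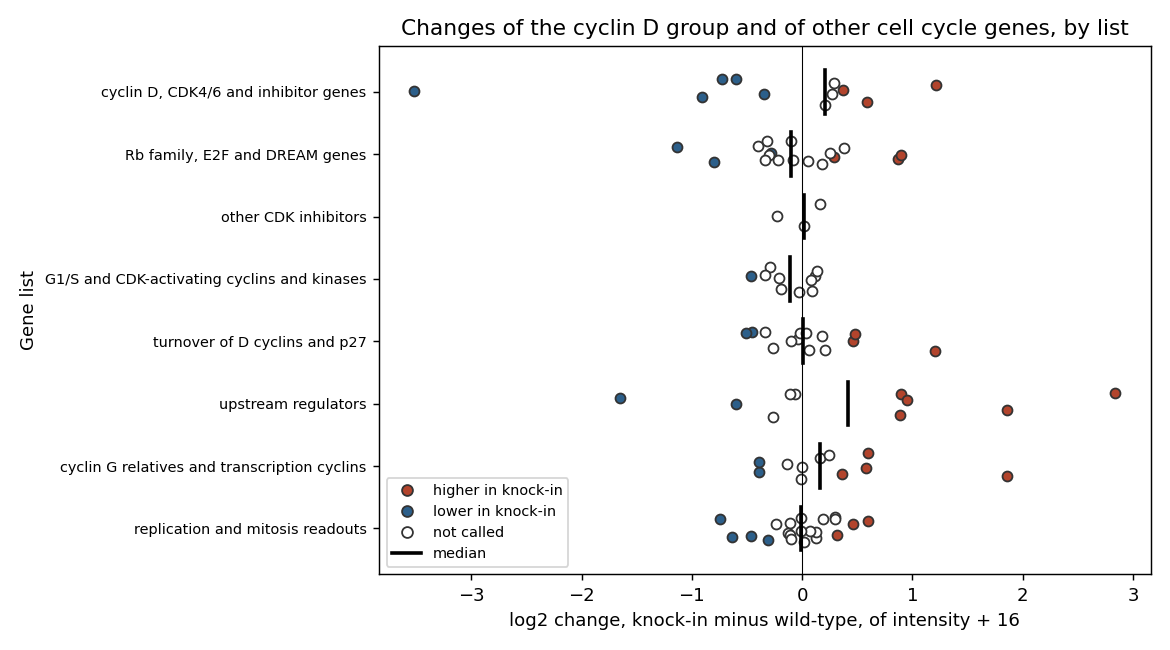
log2 change (knock-in minus wild-type, of intensity + 16) of each gene by list, with red points higher and blue points lower in knock-in liver by limma, open points not called and a bar at the median. The cyclin D group (top) spans -3.52 to 1.22, while the replication and mitosis genes (bottom) lie on both sides of a median of -0.01.

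Genes whose 6 values were most like those of Ccnd1 and Ccng2 were sought among 17634 other tested probe sets with 1 symbol, by the root mean square difference of log2 values after each gene's wild-type mean was subtracted. Those nearest to Ccnd1 were BC023105 (0.20), Nat8f2 (0.28), Cyp2d37-ps (0.32) and the ketone body dehydrogenase gene Bdh1 (0.33), over 6 mice. BC023105 was dim in knock-in liver, at 21, 31 and 22, against 551, 316 and 318 in wild-type liver. The size of its fall depends on the pseudocount (log2 change -3.92 with 1 and -2.34 with 64). Ccnd1 varied less, at -3.62 with 1 and -3.23 with 64. Whether BC023105 stays nearest to Ccnd1 under those pseudocounts was not tested. Bdh1 read 150, 290 and 114 in knock-in and 2511, 1726 and 2673 in wild-type liver, 12.1-fold lower. Nat8f2 and Cyp2d37-ps belong to families of close paralogs, so which member was read is uncertain. Nearest to Ccng2 were Srrd (0.08), the glutathione-degrading enzyme gene Chac1 (0.09), the growth factor receptor gene Pdgfra (0.09) and the zinc finger gene Hivep2 (0.11). Chac1 read 620, 814 and 685 in knock-in and 278, 222 and 363 in wild-type liver, 2.41-fold higher. Like Ccng2, Chac1, Srrd and Hivep2 were highest in knock-in replicate 3 and in wild-type replicate 6 within each genotype. The search picked them by these same 6 values, so the shared order of mice is no separate likeness.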

How the data were processed

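Liver RNA of 6 mice was measured on 1-colour arrays. The authors deposited 1 linear intensity per probe set and array; their summarisation, background correction and normalization are not given in the sources used here, and neither scanner output nor detection flags entered the work. Columns were matched to mice by sample identifier, and mice to genotypes by title. Gene symbols came from the platform annotation (1 symbol for 21789 probe sets, several for 1621, none for 12102), and for all 11 member probe sets the symbol matched that of RefSeq by gene identifier. No genome build is stated for the array, so no probe coordinates are given.

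Array medians spanned 0.087 on the log2 scale, under the limit of 0.1 set for rescaling, so values were used as deposited. They were transformed as log2(intensity + 16), and a fold change on that scale understates the change of dim genes. Probe sets with a mean at or above the 25th percentile (26664) were tested across all features with limma 3.58.1 in R 4.3.3 (lmFit, eBayes with a mean-variance trend), with the contrast of knock-in over wild-type and p-values adjusted by Benjamini-Hochberg. Arrays have no read depth, and 3 mice per genotype limit the precision. The titles number the mice separately, so p-values measure the spread between mice. The procedure was tested on simulated data.

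Members, gene lists and tests were chosen with earlier results of these data known. Named besides the members are up to 4 called genes per pathway list and 3 per marker list, by smallest p (2 where none was called), and 4 genes nearest to the member with the largest fall and the largest rise. The alternatives were pseudocounts of 1 and 64, 2 normalizations, 2 filters, 2 priors, array weights, probe sets with 1 symbol, 2 call rules and each mouse left out. Figures were drawn with matplotlib 3.10.9.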

Additional observations from a re-analysis of the deposited data

How the results depend on the processing

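Over 18 alternatives, 182 of 198 values of the 11 probe sets kept their direction and their side of the threshold, 14 lost the call, 2 gained it and 0 reversed. Ccnd1 (-3.65 to -3.23), Ccnd2, Ccnd3, Ccng2 (1.06 to 1.34), Cdk4 and Cdk6 were called under all 18. Calls were lost for Cdkn2c under 8 alternatives (without each mouse, with no filter, and at 1.5-fold) and for Cdkn1c under 6. The dimmer Cdkn1b probe set was called with array weights (adjusted p = 0.0385) and at a threshold of 0.1. Of all tested probe sets, 3862 passed at 1.5-fold in place of 6904, since that rule adds a size limit. Leaving out single mice gave 4237 to 7750 calls: the lowest counts were 4237 (knock-in 1 omitted), 4493 (wild-type 2 omitted) and 4559 (wild-type 6 omitted). Calls were higher in 57.8% of cases, and in 47.8% with each array centred on its median, which moved the median of all log2 changes by -0.05. Centring also removed the calls of E2f5, Fbxo4, Mcm7, Ccni and Pck1. With no filter on dim signals the calls of Fbxo4, Ccni, Rrm1, Tyms, Pck1, Clec4g and Adgre1 were lost. Among 576 list counts 92 moved by over 1.5 times, or to or from 0. No paired analysis was possible because the genotypes share no replicate number. With 3 mice per genotype, groups were too small for a test of single outlying mice, and signal over background could not be judged without detection calls.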

Other observations

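Of 11 relatives of cyclin G and cyclins of transcription kinases, 4 were called higher, 2 lower and 5 in neither direction, beside 15.0% higher and 10.9% lower of all tested probe sets. Their median log2 change was 0.17. Ccnl1, which encodes cyclin L1, a partner of kinases in pre-mRNA splicing, read 1662, 1260 and 1858 in knock-in and 401, 417 and 450 in wild-type liver, 3.63-fold higher (limma adjusted p = 0.000486). Ccnk and Ccnt2, whose cyclins activate kinases of RNA polymerase II, were 1.51-fold and 1.49-fold higher (limma adjusted p = 0.0222 and 0.0221). Ccng1, the p53-responsive relative of Ccng2, was 1.31-fold lower, at 1006, 1085 and 986 in knock-in and 1410, 1270 and 1379 in wild-type liver (limma adjusted p = 0.0191). The difference between the changes of Ccng1 and Ccng2 was not tested. The calls of Ccng1, Ccnk and Ccnt2 were each lost with 4 of the 6 mice left out singly (adjusted p = 0.0537 to 0.0832), with knock-in 1 and 5 and wild-type 6 among them for all. The other calls, Ccni (higher) and Ccnf (lower), were named after their values were seen and were each lost with 4 of the 6 as well. With single mice left out, 1 of the list was higher without knock-in 1 or 5 or wild-type 6, and 0 were lower without knock-in 5 or wild-type 2 or 6.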
